A study of Mus musculus with 14 samples.

Results

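The interferon-stimulated genes described here are 44 genes, chosen by name as established targets of interferon signalling, out of 54524 genes in the count table. Each of the 44 matched 1 gene of the mouse annotation, and all 44 passed the filter on low counts that left 26626 genes for testing. They were measured by bulk RNA sequencing in liver sinusoidal endothelial cells (LSECs), the fenestrated cells that line the liver's smallest blood vessels. The cells came from male Balb/c mice aged 10 to 12 weeks according to the labels, while the study's methods give a slightly older range. LSECs were sorted as CD32+ F4/80- cells after dead-cell exclusion. According to the methods, cells positive for the leukocyte protein CD45 or for UV autofluorescence, used as a sign of hepatic stellate cells, were gated out as well. Healthy mice (n = 4) were left without injection. The injured mice received carbon tetrachloride (CCl4), a liver toxin, at 0.5 µL per g in mineral oil and were sampled 1 day (n = 2), 3 days (n = 4) or 7 days (n = 4) later, so the effect of the oil and of the injection itself cannot be told apart from that of the toxin. At day 1 the group is small because further samples did not reach the RNA quality needed for sequencing. No source states whether each sample is 1 mouse, so p-values measure the spread between these 14 samples.

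Interferons are secreted proteins that warn cells of infection. Type I interferons such as interferon beta, and type II interferon (interferon gamma), bind separate receptors whose kinases phosphorylate STAT proteins. STAT complexes then bind DNA at the interferon-stimulated response element (ISRE), mainly after type I interferon, or at the gamma-activated site (GAS), mainly after interferon gamma. The genes switched on encode sensors of foreign nucleic acid, proteins that block viral replication or entry, GTPases that attack intracellular microbes, and factors such as IRF1 and IRF7 that prolong the response. LSECs filter gut-derived blood and carry many of the receptors that detect microbial material.

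The promoters of many of the members show the letters through which such a response is read. RefSeq promoter windows on GRCm38.p6, each of 300 bases from 250 before to 50 after a transcription start, were available for 33 of the 44 members. The ISRE core was searched as GAAANNGAAA or, on the other strand, TTTCNNTTTC, and it occurred in 21 of the 33 members (63.6%), against 3.99% of 27025 genes with a window. The GAS letters TTCNNNGAA, which read the same on the opposite strand, occurred in 10 members (30.3%), against 9.55% of genes. Of the 33 members, 7 held both motifs and 9 held neither. A match describes the letters and does not show that a factor binds there. All 6 guanylate-binding or immunity-related GTPases with a window held an ISRE core, as did 3 of 4 IFIT genes and 3 of 3 nucleic acid sensors. The core was less common in the oligoadenylate synthetase (OAS) family (2 of 4), signal transcription factors (1 of 4) and other effectors (2 of 7). In all, 9 members held more than 1 match. The members with a window that passed a test of transcript level are shown first, and below them other members with a match. Capitals mark the ISRE core, or in Irf1 the GAS letters, and sequences run 5′ to 3′ along the strand of the gene.
Rsad2: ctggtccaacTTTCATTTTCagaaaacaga
Oas3: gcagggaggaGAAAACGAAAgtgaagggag
Bst2: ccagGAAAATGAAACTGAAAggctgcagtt
Irf1: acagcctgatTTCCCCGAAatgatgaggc
Isg15: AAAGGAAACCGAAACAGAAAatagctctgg
Ifit3: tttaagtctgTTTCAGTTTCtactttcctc
Ifit3b: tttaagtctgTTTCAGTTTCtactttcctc
Irgm1: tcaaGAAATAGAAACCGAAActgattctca
Gbp7: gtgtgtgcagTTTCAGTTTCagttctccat
These stretches come from chr12:26456403-26456702 (minus strand) for Rsad2, chr5:120777610-120777909 (minus) for Oas3, chr8:71537423-71537722 (minus) for Bst2 and chr11:53769764-53770063 (plus) for Irf1. With positions counted from 0 at the first transcribed base, the match nearest to it began at -120 in Rsad2, -75 in Oas3, -124 in Bst2, -66 in Isg15, -122 in Ifit3, -24 in Irgm1 and -53 in Gbp7, and the GAS match in Irf1 began at -90. Bst2 held 2 overlapping ISRE cores, the first of which also overlapped a GAS match. Isg15 held 3 that overlapped each other. Ifit3 and Ifit3b, which are close paralogs, share the same letters, and reads from such a pair could be split between them by the authors' counting. Irf1 held no ISRE core in either of its windows. The other members that passed a test were Zbp1 (gene at chr2:173206612-173218923, minus strand), Oas2 (chr5:120730333-120749853, minus) and Gbp4 (chr5:105115767-105139586, minus). They had no promoter window and are described by level only. Oas2 and Oas3 are neighbours on GRCm38.

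Libraries held between 46401496 and 103912264 counts, and the lowest count of any member in any sample was 42, for Oas3. Values are given as CPM, counts scaled to a common library total, after TMM scaling, a correction for RNA composition. Levels of different genes were compared per kilobase of exon (RPKM). In healthy LSECs the highest members were Ifitm2 at 4415 ± 705 RPKM and Ifitm3 at 2789 ± 518 RPKM (SD, n = 4), membrane proteins that restrict viral entry. Next in order were Bst2 at 395 ± 28.0 RPKM, a tether that holds budding virus at the cell surface, and Isg15 at 268 ± 79.7 RPKM, a small protein conjugated to other proteins. Oas3 was lowest at 0.337 ± 0.234 RPKM and Mx1 followed at 0.727 ± 0.403 RPKM. Ifitm2 and Ifitm3 did not overlap in level with Bst2, whereas the spreads of Oas3 and Mx1 touched. Ifitm2 shares 40.9% of its exon bases with a gene on the same strand, so its count is uncertain.

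Averaged over all 44 members, the level did not move in 1 direction. The score of a sample, which is the mean log2 CPM of the members, was 6.08, 6.21, 6.21 and 5.90 in healthy LSECs, 6.45 and 6.23 at day 1, 6.45, 5.88, 5.91 and 5.95 at day 3, and 6.12, 5.61, 6.47 and 6.27 at day 7. Both day 1 samples lay above the 4 healthy ones by a small margin, and the day 3 and day 7 groups overlapped with healthy. Behind the flat mean, members moved in both directions, which the map of all members shows by sample. The mean log2 CPM of 10 LSEC markers was 10.69 to 10.99 in healthy samples and lower in every injured one, at 9.92 to 10.59. Of the 10, 9 had a negative log2 change at day 1, 8 at day 3 and 9 at day 7. Lyve1 went the other way, at 271 to 534 CPM in healthy samples, 3020 to 3397 CPM at day 1 and 779 to 1057 CPM at day 3. The summed level of 10 monocyte and neutrophil markers ranged from 521 to 1413 CPM in healthy samples, from 4369 to 8089 CPM at day 1, from 1392 to 13482 CPM at day 3 and from 4190.0 to 9687 CPM at day 7. Lyz2 made up most of the day 7 sum, with values between 3919 and 9304 CPM, whereas both day 1 samples held 1509 and 1701 CPM of it. The mean log2 CPM of the same list, in which each marker counts equally, averaged 3.46 in healthy samples. It averaged 7.52 at day 1, 6.01 at day 3 and 5.25 at day 7. Of the 10 markers, Chil3 alone was at 0, in 1 healthy sample. In bulk samples, fewer cells of a type and less RNA per cell cannot be told apart.

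**Figure D1:**
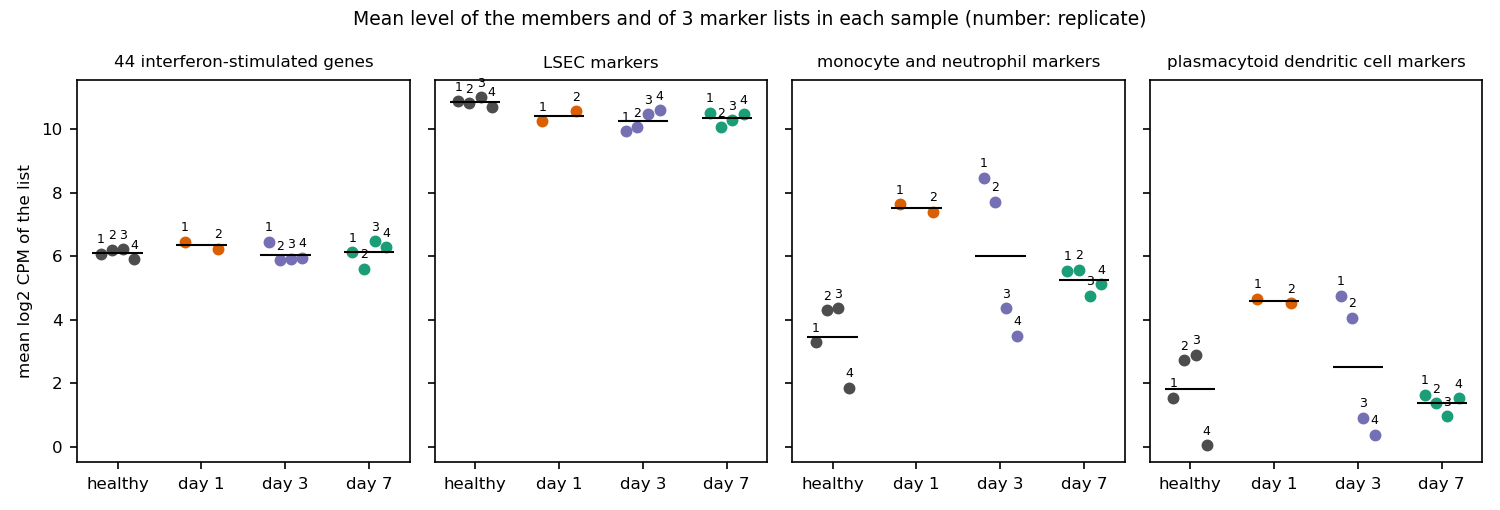
Mean log2 CPM of the 44 members and of 3 marker lists (vertical axis) in each LSEC sample, grouped by day, with the replicate number above each point and a line at the group mean. The members stay between 5.61 and 6.47 in all 14 samples, whereas monocyte and neutrophil markers are high at day 1 and in day 3 replicates 1 and 2 and low in day 3 replicates 3 and 4.

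**Figure D2:**
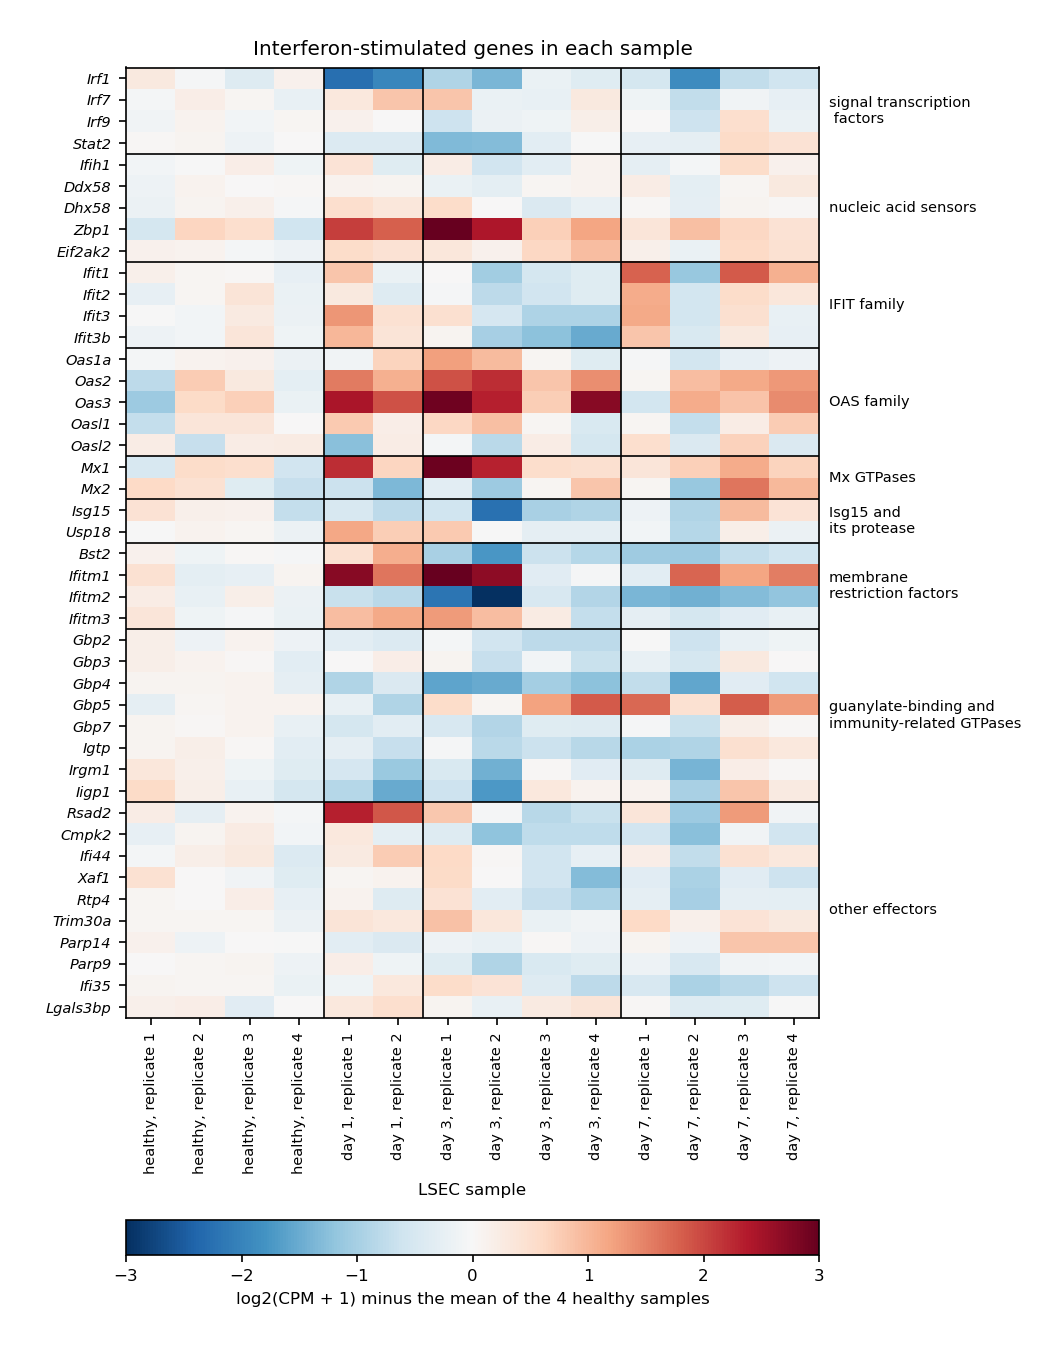
Level of each member (rows, grouped by role) in each sample (columns) as log2(CPM + 1) minus the mean of the 4 healthy samples, with colours saturated at -3 and 3. Zbp1, Oas3, Mx1 and Ifitm1 are red at day 1 and in day 3 replicates 1 and 2, Ifitm2 and Irf1 are blue in every injured sample, and Gbp4 is blue in all of them to varying degrees.

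The first comparison asked what had changed 1 day after the toxin. Rsad2, which encodes the antiviral enzyme viperin, rose, and Irf1, the transcription factor that drives many interferon gamma targets, fell. Rsad2 was at 88.9, 62.7, 82.5 and 72.8 CPM in healthy LSECs and at 385 and 277 CPM at day 1. The groups were far apart, a difference of 2.11 ± 0.52 (SE) on the log2 scale or 4.31-fold (edgeR quasi-likelihood test, Benjamini-Hochberg adjusted p = 0.0372). Irf1 was at 635, 511, 402 and 569 CPM in healthy LSECs and at 108 and 135 CPM at day 1. Both day 1 samples were far below the lowest healthy one, with a log2 change of -2.12 ± 0.42 (edgeR adjusted p = 0.0112). Across all genes tested, 2.42% were called higher and 1.64% lower, against 1 of 44 members in each direction. Every log2 change of Rsad2 stayed between 1.85 and 2.33 when any sample of the 6 was left out, but its adjusted p then ran from 0.0698 to 0.36. The call for Irf1 was lost without day 1 replicate 1 (adjusted p = 0.223) or day 1 replicate 2 (adjusted p = 0.0736), where the lone day 1 sample was assumed to vary like the other groups.

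At day 1, 16 members lay above every healthy sample and 9 below, against 20.0% and 17.9% of all genes, and the median log2 change was 0.09 over members and -0.03 over all genes. The members above included both sensors and entry blockers, none of which passed the test. Zbp1, a sensor of Z-form nucleic acid, was at 3.98, 10.2, 9.16 and 3.74 CPM in healthy LSECs and at 29.6 and 23.8 CPM at day 1 (log2 difference 1.98 ± 0.62, edgeR adjusted p = 0.0967). Bst2 was at 387, 328, 365 and 346 CPM against 489 and 763 CPM (log2 difference 0.81 ± 0.27, adjusted p = 0.125). Usp18, the protease that removes Isg15 and damps the type I receptor, was at 51.4, 56.1, 54.0 and 45.7 CPM against 117 and 86.6 CPM (log2 difference 0.97 ± 0.31, adjusted p = 0.107). In these genes the day 1 samples were above the healthy range, with larger gaps for Zbp1 and Usp18 than for Bst2.
The guanylate-binding and immunity-related GTPases, which act on vacuoles that hold microbes and respond strongly to interferon gamma, leaned the other way. Among the 8 members of that list, 7 had a negative log2 change, with a median of -0.53. Of the 8, 5 lay below every healthy sample (62.5%), against 17.9% of all genes. edgeR called none of them, and limma-voom called Gbp4 lower. Iigp1 was at 757, 565, 434 and 348 CPM in healthy LSECs and at 277 and 176 CPM at day 1 (log2 difference -1.21 ± 0.56, adjusted p = 0.279). Irgm1 was at 251, 221, 181 and 153 CPM against 140.1 and 90.2 CPM (log2 difference -0.81 ± 0.44, adjusted p = 0.382). The IFIT genes, which bind viral RNA, showed no such separation for Ifit2, at 88.7, 111, 138 and 92.6 CPM in healthy LSECs and 131 and 81.0 CPM at day 1. Ifit3 was at 63.7, 60.8, 76.8 and 56.4 CPM against 163 and 88.0 CPM (log2 difference 0.96 ± 0.46, adjusted p = 0.301).
Signal transducers and entry blockers also went both ways at day 1. Irf7, the factor that amplifies type I interferon output, was at 84.0, 101, 92.0 and 75.6 CPM in healthy LSECs and 109 and 156 CPM at day 1 (adjusted p = 0.327). Ifitm3 was at 2402, 1720.3, 1824 and 1617 CPM in healthy LSECs and 3553 and 4083 CPM at day 1 (log2 difference 1.01 ± 0.38, adjusted p = 0.17). Ifitm2 was at 3361, 2473, 3215 and 2519 CPM against 1791 and 1644 CPM, below the healthy range (log2 difference -0.75 ± 0.52, adjusted p = 0.508). Ifitm2 and Ifitm3 thus lay on opposite sides of the healthy samples at day 1, and neither passed the test. Their relative Ifitm1, at 112 and 51.1 CPM against 12.9 to 22.6 CPM, was above the healthy range without a call. Of the 4 membrane restriction factors, 3 lay above every healthy sample and 1 below, against 20.0% and 17.9% of all genes.
All 10 monocyte and neutrophil markers and all 5 plasmacytoid dendritic cell markers were above every healthy sample at day 1 as well. The same held for 20.0% of all genes. edgeR called 5 of the 10 higher and 0 of the 5 (smallest adjusted p = 0.106), where 2.42% of all genes were called higher. The summed plasmacytoid markers ranged from 6.57 to 49.4 CPM in healthy samples and from 154 to 172 CPM at day 1, and the leukocyte gene Ptprc from 36.9 to 109.6 CPM and from 128 to 177 CPM. Their part in the member levels was not tested.

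**Figure D3:**
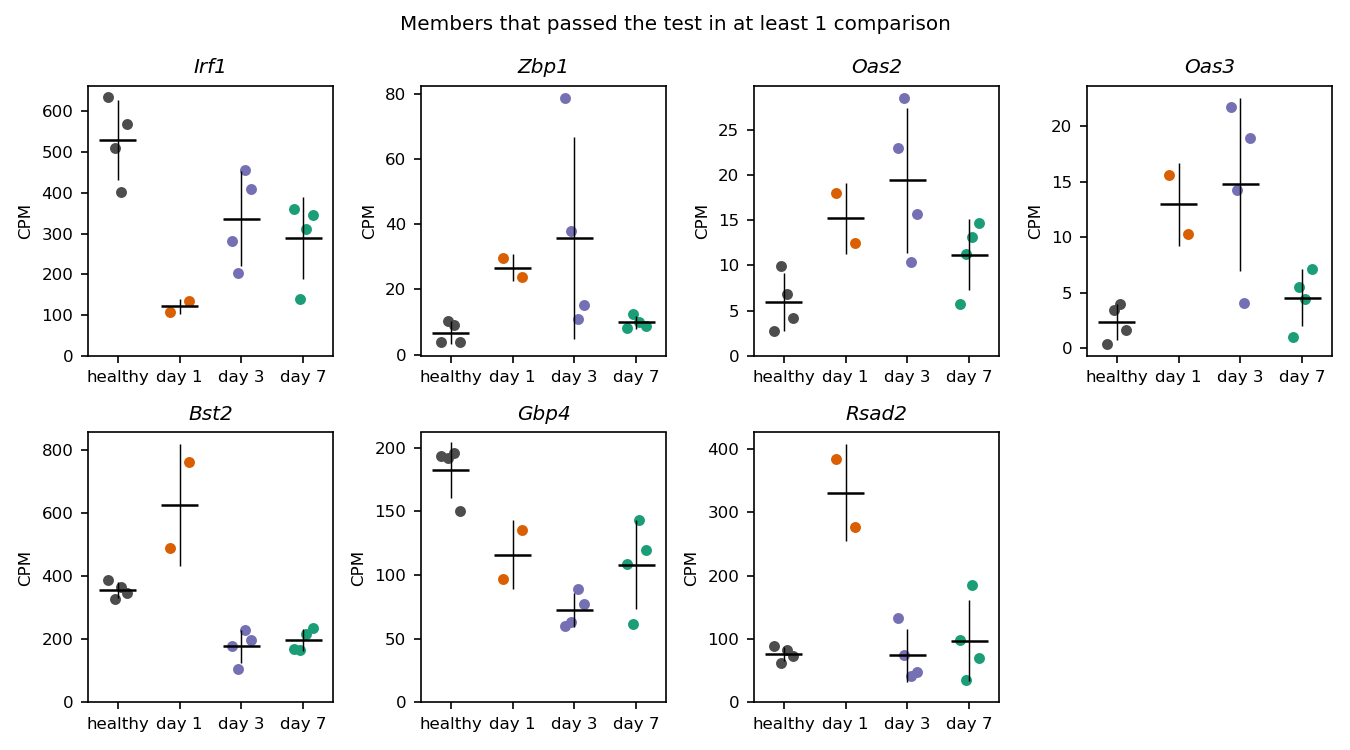
CPM (vertical axis, linear) of the 7 members that passed the test in at least 1 comparison, with a point for each sample, a horizontal line at the group mean and a vertical line of 1 SD to each side. Rsad2 is highest in the 2 day 1 samples, Irf1 is lowest at day 1, Bst2 is above the healthy samples at day 1 and below them at days 3 and 7, and the day 3 points of Zbp1 are spread from 10.9 to 78.7 CPM.

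At day 3 the second comparison found 3 members higher and 2 lower. The higher ones were Zbp1 and 2 oligoadenylate synthetases, Oas2 and Oas3, enzymes that answer double-stranded RNA by making the activator of RNase L. Those lower were Bst2 and the guanylate-binding protein Gbp4. Of all genes, 4.62% were called higher and 2.58% lower, against 6.82% and 4.55% of members, so with 44 members each share differs from its background by about 1 gene.
Zbp1 was at 78.7, 37.9, 10.9 and 15.3 CPM at day 3, against 3.74 to 10.2 CPM in healthy LSECs (log2 change 2.40 ± 0.55, edgeR adjusted p = 0.0199). Oas2 was at 2.73, 9.95, 6.89 and 4.22 CPM in healthy LSECs and at 22.9, 28.5, 10.4 and 15.7 CPM at day 3 (log2 change 1.70 ± 0.43, adjusted p = 0.0303). Oas3 was at 0.419, 3.48, 3.98 and 1.64 CPM in healthy LSECs and at 21.7, 14.3, 4.06 and 18.9 CPM at day 3 (log2 change 2.63 ± 0.71, adjusted p = 0.0398). In each of these genes every day 3 sample was above every healthy one, by a narrow margin in replicate 3. Zbp1 was highest in replicates 1 and 2, while Oas3 was also high in replicate 4.
Bst2 was at 180.1, 106, 228 and 196 CPM at day 3, against 328 to 387 CPM in healthy LSECs (log2 change -1.01 ± 0.23, adjusted p = 0.0201). Gbp4 was at 193, 192, 196 and 149.9 CPM in healthy LSECs and at 60.3, 63.3, 89.0 and 77.1 CPM at day 3 (log2 change -1.33 ± 0.24, adjusted p = 0.00686). Neither gene overlapped between the groups, and Gbp4 was low in all 4 day 3 samples to a similar extent.

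The day 3 libraries differed among themselves in the markers of other cell types. The mean log2 CPM of the monocyte and neutrophil markers was 8.46 and 7.71 in replicates 1 and 2 but 4.36 and 3.51 in replicates 3 and 4, and that of the plasmacytoid dendritic cell markers was 4.76 and 4.06 but 0.92 and 0.39. Ptprc followed the same order, at 269.6, 182, 63.9 and 46.7 CPM. Genes detected fell in the same order of pairs, at 34678 and 34768 in replicates 1 and 2 and 28203 and 22986 in replicates 3 and 4. With replicates 1 and 2 left out, a choice made after seeing the data, the log2 change was 0.97 for Zbp1 (adjusted p = 0.152), 1.15 for Oas2 (adjusted p = 0.154), 2.29 for Oas3 (adjusted p = 0.112) and -0.73 for Bst2 (adjusted p = 0.0540), and none of these passed. Gbp4 stayed lower in that fit, with a log2 change of -1.12 (adjusted p = 0.0395), and it also passed whichever sample was left out. With replicates 3 and 4 left out instead, 8 members were called higher and 7 lower, against 10.7% and 12.6% of all genes.
With only the day 3 and healthy samples in the fit, Gbp4 alone of the 5 members was called, and with no filter on low counts Oas2 and Oas3 were not. Leaving out single libraries also ended day 3 calls. Zbp1 was lost without day 3 replicate 1 (adjusted p = 0.0594) or without healthy replicates 1 (adjusted p = 0.0661) or 4 (adjusted p = 0.0605). Oas2 and Oas3 passed in 3 and 1 of the 8 fits that leave out a sample. Bst2 was lost without healthy replicate 1 (adjusted p = 0.0588) or 3 (adjusted p = 0.0513).

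Several other antiviral members were spread widely among the day 3 libraries, and none of those given next passed the test. Mx1, a dynamin-like GTPase that traps viral nucleocapsids, was at 25.9, 16.4, 4.07 and 3.87 CPM at day 3 and at 1.51, 4.18, 3.95 and 1.36 CPM in healthy LSECs (log2 difference 2.19 ± 0.64, adjusted p = 0.0571). Its relative Mx2 was at 27.7, 15.9, 36.1 and 63.0 CPM, around the healthy values of 53.1, 48.2, 26.7 and 21.2 CPM. Oas1a, the most highly expressed synthetase per length, was at 242, 198, 108 and 79.2 CPM at day 3, and healthy samples ranged from 91.0 to 113 CPM. Ifitm1, named after its values were seen, was at 140.3, 108, 12.4 and 15.7 CPM, against 12.9 to 22.6 CPM in healthy LSECs (log2 difference 2.07 ± 0.70, adjusted p = 0.0937). In Mx1, Oas1a and Ifitm1 the first pair of day 3 samples was above healthy and the second pair overlapped with it.
Ifitm3 had a similar order, at 4523, 3527, 2218 and 1143 CPM, and Ifitm2 the opposite one, at 631, 340.0, 2050.3 and 1562 CPM, all below the healthy range (log2 difference -1.34 ± 0.41, adjusted p = 0.0695). Isg15 was at 128, 40.7, 98.3 and 103 CPM at day 3, and at 262, 215, 214 and 118 CPM in healthy LSECs (log2 difference -1.13 ± 0.40, adjusted p = 0.111). Eif2ak2, the kinase PKR that stops translation on sensing double-stranded RNA, was at 56.4, 48.6, 69.1 and 86.2 CPM, against 39.8 to 49.0 CPM (log2 difference 0.54 ± 0.21, adjusted p = 0.146). Isg15 and Eif2ak2 each overlapped with healthy in 1 day 3 sample. Ddx58, which encodes the RNA sensor RIG-I, was steady, at 51.5, 48.0, 61.4 and 63.8 CPM at day 3 and 52.7, 64.1, 59.7 and 60.1 CPM in healthy LSECs.
Oasl2 was at 117, 61.8, 118 and 120.0 CPM in healthy LSECs, 41.5 and 117 CPM at day 1, 97.1, 56.9, 117 and 69.7 CPM at day 3 and 144, 74.5, 163 and 74.0 CPM at day 7, with overlap in every comparison.
Over the whole list, 3 members lay above every healthy sample at day 3 and 6 below, against 7.53% and 6.84% of all genes. The median log2 change was -0.15 over members and 0.18 over all genes. All 4 IFIT genes and 7 of the 8 GTPases of the guanylate-binding and immunity-related list had a negative log2 change. Both comparisons, and the one at day 7, share the same 4 healthy samples.

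**Figure D4:**
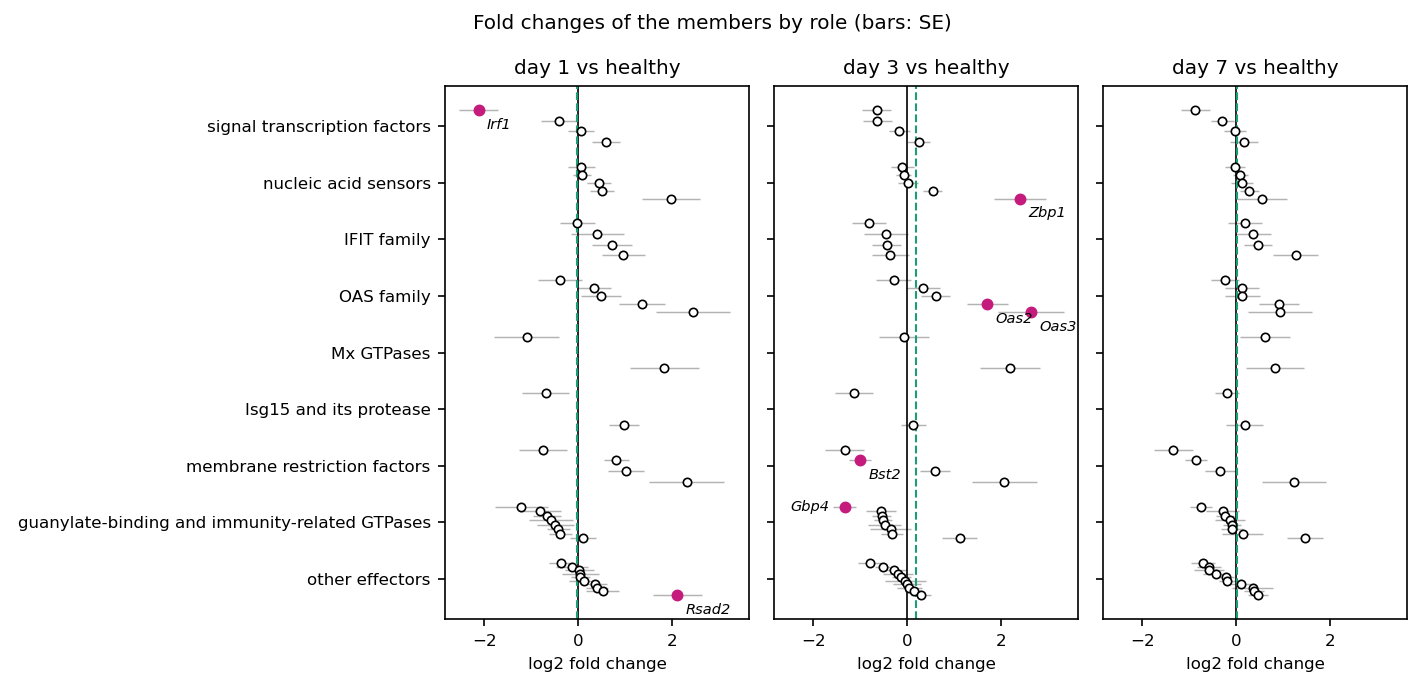
Log2 fold change with its SE (horizontal axis) of each member against healthy LSECs at days 1, 3 and 7, by role. Filled points passed the test, open points did not, and the dashed line marks the median of all genes tested. 2 filled points stand at day 1, 5 at day 3 and none at day 7.

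At day 7, none of the 44 members was called by the edgeR test in either direction, where 2.19% of all genes were called higher and 0.992% lower. At an unadjusted p under 0.05 there were 10 members. DESeq2 called 1 member higher and 3 lower, where it called 6.46% and 3.74% of all genes. limma-voom called 3 higher and 7 lower, where it called 13.5% and 13% of all genes. The median log2 change was 0.09 over members and 0.02 over all genes. In all, 2 members lay above every healthy sample and 7 below, against 8.72% and 12.1% of all genes. Among the 4 membrane restriction factors, Bst2, Ifitm2 and Ifitm3 were below the healthy range in each sample, while Ifitm1 was at 12.7, 55.9, 37.6 and 48.2 CPM, above it in 3 samples (log2 difference 1.23 ± 0.68, adjusted p = 0.316). Bst2 was at 170.5, 167, 217 and 236 CPM at day 7 (log2 difference -0.85 ± 0.23, adjusted p = 0.0620), and Ifitm2 at 1099, 1057, 1156 and 1264 CPM (log2 difference -1.34 ± 0.41, adjusted p = 0.0911). Gbp4 was at 109, 61.2, 143 and 119.8 CPM (log2 difference -0.76 ± 0.24, adjusted p = 0.0958), and Irf1 at 359.7, 141, 312 and 345 CPM (log2 difference -0.87 ± 0.31, adjusted p = 0.129). Like Bst2 and Ifitm2, Gbp4 and Irf1 were below the healthy range in each day 7 sample, and none of these 4 genes passed the test.
Gbp5, a guanylate-binding protein named after its values were seen, was the member with the lowest adjusted p on the higher side. It was at 12.1, 15.3, 15.9 and 15.7 CPM in healthy LSECs and at 50.9, 20.5, 53.9 and 37.2 CPM at day 7 (log2 difference 1.46 ± 0.38, adjusted p = 0.0557). Its level at day 7 was above healthy in each sample, opposite to its relative Gbp4.
The day 7 samples also differed among themselves. Ifit1, an RNA-binding member named after its values were seen, was at 177, 22.7, 187 and 109 CPM at day 7 and at 43.3 to 57.3 CPM in healthy LSECs (log2 difference 1.26 ± 0.48, adjusted p = 0.152). Without replicate 2, Ifit1 was called higher by edgeR both against healthy and against day 3. Replicate 2 was the lowest of the 4 in Ifit1 and in Irf1, Ifit2, Ifit3, Isg15, Usp18, Gbp4, Irgm1, Iigp1 and Rsad2. Ifit2 was at 231, 71.5, 157 and 134 CPM, Isg15 at 175, 103, 378 and 259.6 CPM, Iigp1 at 539.7, 255, 904 and 613 CPM and Rsad2 at 98.7, 35.0, 186 and 70.5 CPM. Lgals3bp, a secreted glycoprotein, was at 578, 432, 438 and 564 CPM at day 7 and 627, 648, 446 and 573 CPM in healthy LSECs, and Ifi35 was at 83.6, 59.7, 66.3 and 75.1 CPM, below the healthy range of 101 to 124 CPM (adjusted p = 0.143). Replicate 2 also had the highest hepatocyte marker sum of the day 7 group, at 6336 CPM against 776 to 3344 CPM in the other 3. Of 10 hepatic stellate cell markers, 5 were called higher at day 3 and 7 at day 7, against 4.62% and 2.19% of all genes. Their sum ranged from 265 to 443 CPM in healthy samples. It was 423 to 1326 CPM at day 3 and 379 to 2299 CPM at day 7. Mitochondrial genes took 3.04% to 3.65% of counts in healthy samples and 5.28% to 9.87% at day 7. The part of any of these in the member levels was not tested.

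The time points were then compared with each other. From day 1 to day 3, Bst2 and Rsad2 fell, and no member rose. Bst2 went from 489 and 763 CPM to 106 to 228 CPM (log2 change -1.82 ± 0.27, edgeR adjusted p = 0.00487). Rsad2 went from 385 and 277 CPM to 134, 74.8, 42.0 and 47.6 CPM (log2 change -2.15 ± 0.52, adjusted p = 0.0458). In neither gene did the groups overlap, and of the day 3 samples of Rsad2, replicate 1 was above the healthy range, replicate 2 within it and the other 2 below it. Of all genes, 1.57% were called higher and 0.969% lower. The Bst2 call was lost without day 1 replicate 2 (adjusted p = 0.0994), and the Rsad2 call passed in 1 of the 6 fits that leave out a sample. Irf1 was at 281, 202, 456 and 409 CPM at day 3, above both day 1 samples (log2 difference 1.47 ± 0.40, adjusted p = 0.0750). In all, 3 members lay above both day 1 samples in every day 3 sample and 6 lay below, against 11.4% and 10.4% of all genes.
The 10 other effectors, among them Rsad2, had median log2 changes against healthy of 0.08 at day 1, -0.08 at day 3 and -0.20 at day 7, and edgeR called none of them but Rsad2.
From day 3 to day 7, no member was called by edgeR, where 0.413% of all genes were called higher and 1.36% lower. At an unadjusted p under 0.05 there were 15 members. DESeq2 called 3 members higher and 1 lower, where it called 2.63% and 4.06% of all genes. limma-voom called 5 higher and 6 lower, where it called 8.02% and 14.5% of all genes. No member was free of overlap between the 2 groups in either direction, against 3.76% and 4.15% of all genes. All 4 IFIT genes and all 8 GTPases of the guanylate-binding and immunity-related list had a positive log2 change, with medians of 0.95 and 0.39, against -0.10 over all genes.

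The genes that produce, receive and limit interferon signals were described from lists of the pathway. Among 11 interferon ligands, 9 were too low to be tested. Ifnb1, the gene of interferon beta, was between 0 and 0.871 CPM, with its highest value in day 3 replicate 1. Ifng, the gene of interferon gamma made chiefly by T and NK cells, was at 2.54, 5.16, 5.15 and 0.996 CPM in healthy LSECs, 1.69 and 1.78 CPM at day 1, 4.45, 2.89, 0.273 and 4.76 CPM at day 3 and 2.39, 1.13, 1.5 and 0.806 CPM at day 7. All groups overlapped for both ligands and neither was called.
The receptor chain Ifnar2 ranged from 180.2 to 387 CPM and the kinase Jak1 from 979 to 1997 CPM over all samples, and neither Jak1 nor any of the 6 receptors was called at day 1, 3 or 7 against healthy. Ifnlr1, the receptor chain for type III interferons, was far lower, at 0 to 1.79 CPM, and is named after its values were seen. The inhibitor Socs3, which blocks cytokine receptor kinases, was at 1244, 1770.0, 1589.8 and 1486 CPM in healthy LSECs and at 695 and 754 CPM at day 1, below the healthy range (log2 difference -1.07 ± 0.52, adjusted p = 0.310).
The calls in the pathway fell mostly among the 12 sensing and adaptor genes, the largest of the pathway lists. At day 1, 2 of them rose (16.7%) and 1 fell (8.33%), against 2.42% and 1.64% of all genes. Tmem173, which encodes the adaptor STING, was at 75.8, 92.2, 84.0 and 70.3 CPM in healthy LSECs and at 188 and 194 CPM at day 1 (log2 change 1.25 ± 0.21, adjusted p = 0.00477). Myd88, an adaptor of Toll-like receptors, was at 86.5, 81.8, 81.4 and 64.7 CPM against 163 and 119 CPM (log2 change 0.85 ± 0.20, adjusted p = 0.0318). Mavs, the mitochondrial adaptor of the RNA sensors, was at 44, 56.8, 63.5 and 63.6 CPM against 22.3 and 28.2 CPM (log2 change -1.17 ± 0.26, adjusted p = 0.0207). None of these 3 genes overlapped between the groups. Ticam1, another Toll-like receptor adaptor, named after its values were seen, was at 9.29 and 13.4 CPM at day 1 and overlapped with the healthy range. The Tmem173 call was lost without day 1 replicate 1 (adjusted p = 0.0621), and those of Myd88 and Mavs passed in 1 and 2 of the 6 fits that leave out a sample, with adjusted p = 0.525 and 0.345 without day 1 replicate 1.
At day 3, 3 sensing genes rose (25%) and 1 fell (8.33%), against 4.62% and 2.58% of all genes. The gene that fell was again Mavs, to 22.3, 21.1, 30.7 and 29.6 CPM (log2 change -1.13 ± 0.20, adjusted p = 0.00644), a call kept when any sample was left out. Tmem173 was at 129, 148, 109 and 114 CPM (log2 change 0.63 ± 0.18, adjusted p = 0.0478), a call lost whichever sample was left out and with scaling by library size alone (adjusted p = 0.0617). Cgas, the DNA sensor upstream of STING, was at 11.0, 10.5, 10.7 and 9.53 CPM in healthy LSECs and at 19, 11.8, 25.7 and 31.8 CPM at day 3 (log2 change 1.08 ± 0.28, adjusted p = 0.0324). Unlike Zbp1 and Mx1, it was highest in replicates 3 and 4, and without these its log2 change was 0.44 (adjusted p = 0.212), and the call passed in 1 of the 8 fits that leave out a sample. Ikbke, a kinase that activates IRF factors, was at 1.53, 2.98, 2.47 and 2.99 CPM in healthy LSECs, 9.80, 10.0, 6.86 and 4.28 CPM at day 3 (adjusted p = 0.0177) and 5.66, 12.7, 9.81 and 6.28 CPM at day 7 (log2 change 1.79 ± 0.37, adjusted p = 0.0216). It was the pathway gene called at both times, and without day 3 replicates 1 and 2 its day 3 call was lost (adjusted p = 0.0911). Leaving out 1 sample kept the Ikbke call in 4 of 8 fits at day 3 and 3 of 8 at day 7.
Tbk1, the kinase downstream of both STING and MAVS, was at 99.6 and 109 CPM at day 1 and at 50.2, 55.7, 66.6 and 66.0 CPM at day 3, a fall of -0.81 ± 0.19 on the log2 scale (adjusted p = 0.0349). The call was lost with scaling by library size alone (adjusted p = 0.171) and in 4 of the 6 fits that leave out a sample. Myd88 fell over the same interval (log2 change -0.83, adjusted p = 0.0470), a call kept in 3 of those 6 fits.
Among other IRF factors, Irf5 rose and Irf2, which competes with Irf1 for its sites, fell at day 3. Irf5 was at 11.4, 31.9, 33.9 and 16.9 CPM in healthy LSECs and at 88.2, 48.8, 35.9 and 56.4 CPM at day 3 (log2 change 1.28 ± 0.37, adjusted p = 0.0496), a call lost when any sample was left out and with RLE scaling (adjusted p = 0.0557). Irf2 was at 52.7, 53.5, 58.1 and 63.8 CPM against 30.5, 27.6, 42.7 and 38.6 CPM (log2 change -0.71 ± 0.16, adjusted p = 0.0186), and at 55.0, 56.9, 58.3 and 61.6 CPM at day 7 it had risen from day 3 (log2 change 0.73 ± 0.16, adjusted p = 0.0376). The Irf2 fall was lost without day 3 replicates 1 and 2 (adjusted p = 0.0695) and with scaling by library size alone (adjusted p = 0.0739), and its later rise passed in 2 of the 8 fits that leave out a sample. Irf8, the most abundant of these factors per length, ranged from 99.8 to 430.2 CPM without a call, and Ube2l6, the conjugating enzyme for Isg15, from 10.4 to 71.5 CPM.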

How the data were processed

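LSECs from 14 samples (4 healthy, 2 at day 1, 4 at day 3, 4 at day 7) were sequenced from SMARTseq v4 libraries. Per the labels and the study's methods, the authors ran FastQC and AfterQC on the reads, used STAR for alignment against GRCm38.p6 and StringTie for quantification, and deposited raw counts per Ensembl gene. Tool versions, the annotation release and the use of strand are not given in the sources used here, and the methods describe both paired-end and single-end reads. Total counts ran from 46401496 to 103912264 per sample. Same-numbered samples of different groups did not deviate together (18 pairs, correlations from -0.232 to 0.0962), so the numbers were not treated as pairs.

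Gene names were taken from GENCODE vM21 (54495 of 54524 identifiers matched). edgeR 4.0.16 (R 4.3.3) was run with filterByExpr (at least 10 counts, 15 in total), TMM and the quasi-likelihood test in a model with a mean for each of the 4 groups over all 14 samples. p-values were adjusted by Benjamini-Hochberg over 26626 genes with a threshold of 0.05, and the SE is the log2 change divided by the square root of F. Scores used a prior count of 2. The test was checked on counts drawn with known changes. Alternatives used DESeq2 1.42.0, limma 3.58.1, other scaling and filters, the compared groups alone, a replicate block and leaving out samples.

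The members and all gene lists were chosen with earlier results of these data known. Members named are those called in any of 5 comparisons and the 2 with the highest RPKM of each of 9 role lists, with called pathway genes and the highest of each pathway list. Ifitm1, Ifit1 and Gbp5, and members named by their promoter or by their rank in a list, were added after their values were seen. Values of 1 listed pathway gene are not reported here.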

Additional observations from a re-analysis of the deposited data

Results flagged for a closer look

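In 4 of 75 groups of 4 samples examined (24 members and the score, in 3 groups each), the highest or lowest sample stood apart from the other 3 by Dixon's test, and chance gives about 1 in 20. Healthy replicate 2 was apart in Oasl2, an OAS-like protein, at 61.8 CPM. Healthy replicate 4 was apart, with hepatocyte markers that summed to 8112 CPM against 184 to 364 CPM in the other 3, in Gbp4 at 149.9 CPM and in Ifi35 at 101 CPM. Day 3 replicate 1, with the highest monocyte and neutrophil marker sum of all samples at 13482 CPM, was apart in the score over the members at 6.45. Any part of other cells' RNA in these values was not tested.

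A difference between time points passed the edgeR test (adjusted over all genes) for Bst2 and Rsad2, with log2 changes of -1.82 and -2.15 from day 1 to day 3. Among the pathway genes it passed for Myd88 at -0.83 and the kinase Tbk1 at -0.81 from day 1 to day 3, and for Irf2 at 0.73 from day 3 to day 7.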

How the results depend on the processing

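Scaling by RLE or library size called the same members as TMM in all 5 comparisons. For members called higher and lower, in the order day 1, 3 and 7 against healthy, day 3 against day 1 and day 7 against day 3, edgeR gave 1 and 1, 3 and 2, 0 and 0, 0 and 2, and 0 and 0. DESeq2 gave 4 and 1, 6 and 7, 1 and 3, 2 and 3, and 3 and 1. limma-voom with sample weights gave 7 and 2, 7 and 9, 3 and 7, 0 and 5, and 5 and 6. These tools called more of all genes too, so the member counts are to be read against the shares. At day 1, 2.42% of genes were higher and 1.64% lower in edgeR, 4.58% and 6.08% in DESeq2 and 9.45% and 6.73% in limma-voom. At day 3 the shares were 4.62% and 2.58%, 8.83% and 5.41%, and 15.9% and 11.4%. With the 2 compared groups alone there were 4 and 2, 0 and 1, 1 and 3, 0 and 0, and 0 and 0, with between 1 and 2776 genes called in all. Without a filter on low counts 1 was higher at day 3, where 1.64% of genes were. With at least 10 counts in every sample there were 1 and 1, 4 and 5, 1 and 0, 0 and 3, and 1 and 0, where 8.34% and 6.21% of genes were called at day 3.

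In the replicate block, 0 members were higher at day 1, 1 higher at day 3 and 1 lower from day 1 to day 3, where 1.35%, 3.18% and 0.473% of genes were called. The samples share a number and no stated source.

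Leaving out day 3 libraries was chosen after seeing the data. Without day 3 replicates 1 and 2 there were 2 higher and 3 lower at day 3, where 5.16% and 3.33% of genes were called. From day 1 to day 3 that fit gave 2 higher and 7 lower, where 3.87% and 2.93% of genes were called. From day 3 to day 7 it gave 1 higher, where 0.578% of genes were. Without replicates 3 and 4 there were 8 higher and 7 lower at day 3, where 10.7% and 12.6% of genes were called. From day 1 to day 3 this second fit gave 4 lower, where 6.72% of genes were. From day 3 to day 7 it gave 6 higher and 7 lower, where 10.8% and 12.0% of genes were called. Ifitm2, level from day 3 to day 7 in edgeR, had a log2 change of 1.17 in limma-voom and 1.36 without day 3 replicates 3 and 4. The cause of these differences was not tested.

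Leaving out 1 sample at a time gave 0 to 0 higher and 0 to 1 lower at day 1, 0 to 5 higher and 1 to 5 lower at day 3, 0 to 1 higher and 0 to 0 lower at day 7, 0 to 0 higher and 0 to 5 lower from day 1 to day 3, and 0 to 1 higher and 0 to 4 lower from day 3 to day 7. Over these fits, 2.35% to 6.43% of all genes were called higher and 1.17% to 5.95% lower at day 3. At day 7 the shares were 0.612% to 3.21% and 0.0826% to 2.43%. From day 3 to day 7 they were 0.0526% to 1.66% and 0.0751% to 4.50%. With a healthy sample left out, 1.57% to 1.78% of all genes were called higher and 1.09% to 1.30% lower at day 1. With a day 3 sample left out, 0.826% to 1.81% were higher and 0.894% to 1.60% lower from day 1 to day 3. With 1 sample left out, the score of day 1 minus healthy was between 0.13 and 0.35. That of day 3 minus healthy was between -0.19 and 0.01, and that of day 7 minus healthy between -0.10 and 0.19. A lone day 1 sample was assumed to vary like the other groups.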
